A study of Mus musculus with 8 samples.

Results

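I-CBP112, a small molecule that binds the bromodomain shared by the acetyltransferases CBP (Crebbp) and p300 (Ep300), was compared with ethanol in mouse fibroblasts undergoing reprogramming toward heart muscle. The comparison takes 4 of the series' 8 RNA-seq libraries, 2 with I-CBP112 and 2 with ethanol, and was described over the 34250 of 50600 listed genes that had a mean normalized count above 0. Of these, 14830 carried an adjusted p and are called tested below, while 19420 lay under the authors' filter on low counts. All libraries came from C57BL/6 embryonic fibroblasts infected with retroviruses for Gata4, Hand2, Mef2c and Tbx5 (GHMT). The cells were held in StemPro-34 SFM medium for 7 days and fed again every few days.

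The ethanol group received 0.1% ethanol and the I-CBP112 group 5 µM of the compound. The other 2 groups, used here for comparison only, received 1% DMSO or 5 µM C646, an inhibitor of the catalytic site of the same acetyltransferases. The labels do not say which solvent carried I-CBP112, so the compound and any difference of solvent from the ethanol group cannot be told apart. The titles mark the 2 libraries of every group B2 and B3, without saying what these marks stand for. No label says whether the 2 libraries of a group came from separate cultures, so errors and p-values cover only the spread between libraries. For nearly all tested genes a single dispersion, a measure of that spread, matched the errors of the I-CBP112, DMSO and C646 tables. The spread within the DMSO and C646 groups therefore enters the errors given here too. The tables name no reference group. None of them is for ethanol, so ethanol is taken to be that group.

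CBP and p300 acetylate histones at enhancers and promoters and serve as coactivators for many transcription factors, GATA4, MEF2C and TBX5 among them. Their bromodomain binds acetylated lysine and is separate from the catalytic domain. Forced expression of GHMT turns on contractile and calcium-handling genes in some fibroblasts, which in their starting state are rich in collagens, elastic fibre proteins and secreted signalling molecules.

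Values of single libraries are not analysed here. Group means are given in normalized counts and were rebuilt from the deposited overall mean and fold changes. Every log2 fold change against ethanol, its standard error (±) and its adjusted p come from the authors' deposited table, and a positive value means a higher level with I-CBP112. In bulk RNA, fewer cells of a type and less RNA per cell cannot be told apart.

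With I-CBP112, 1468 of 14830 tested genes passed an adjusted p below 0.05 in the authors' deposited table, 9.90% of those tested. Of these, 689 were higher (4.65%) and 779 were lower (5.25%). Most of the tested genes moved little, and 83.7% had a log2 fold change between -0.5 and 0.5. The median over all tested genes was 0.015. Genes that fell did so by more: their median was -0.78, against 0.64 for those that rose, and 262 fell at least 2-fold while 161 rose that much. Protein-coding genes made up 667 of the genes that rose and 758 of those that fell. Of 917 long noncoding genes tested, 16 rose and 15 fell. Calls depended on expression: 3.64% of genes passed in the lowest of 5 equal classes by mean count, where the median standard error was 0.496, and 15.2% in the highest, where it was 0.129. The deposited p-values treat the Wald statistic as normal. With a t distribution on 4 degrees of freedom, chosen for 8 libraries in 4 groups, 0 genes passed after adjustment and 1506 had an unadjusted p below 0.05.

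**Figure D1:**
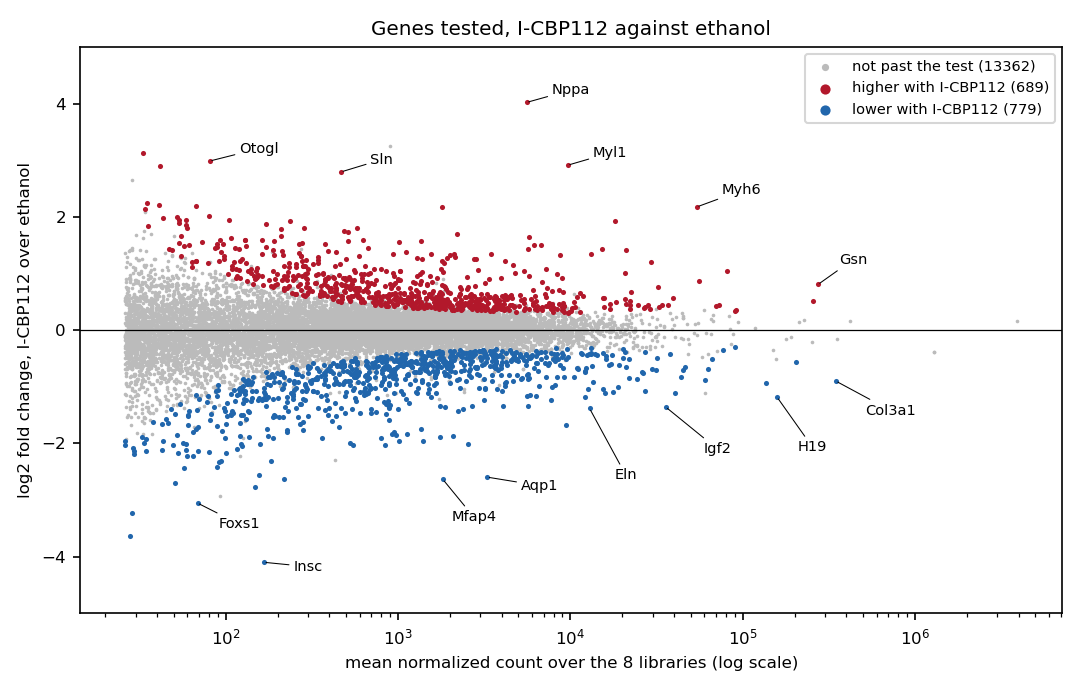
Log2 fold change of I-CBP112 over ethanol (vertical axis, authors' values) against the mean normalized count over the 8 libraries (horizontal log axis) for each tested gene, coloured by the test. The 689 higher and 779 lower genes lie above and below 0, with Nppa at 4.02 and Insc at -4.10, and 1 gene that did not pass lies outside the axis.

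Marker genes showed a fibroblast culture with a heart muscle component. The 10 fibroblast markers summed to 983920 normalized counts with ethanol and 588460 with I-CBP112, and 7 of 10 fell while 0 rose. The 10 heart muscle markers summed to 104470 with ethanol and 301200 with I-CBP112, and all 9 that were tested rose. Nkx2-5, a core cardiac transcription factor, was near 0 in both groups (0.676 and 0.146). Smooth muscle markers summed to 125770 and 129350, with 0 of 5 past the test. Markers of other cell types had lower sums. Epithelial and epicardial markers summed to 5727 and 4702 (2 of 4 tested fell), leukocyte markers to 3679 and 3016 (2 of 7 fell), and neuron and glia markers to 1476 and 2216 (0 of 2 tested passed). Endothelial markers summed to 1012 and 664 (1 of 2 tested fell), adipocyte markers to 702 and 324 (3 of 4 tested fell) and cartilage and bone markers to 25.7 and 11.2 (none tested). Skeletal muscle markers summed to 28.8 and 33.2, and the regulator Myod1 had no counts. The part that a changed mix of these cell types has in the results below was not tested.

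Most tested sarcomere genes rose. In the list of smooth muscle contractile genes, 3 of 22 rose and 1 fell (median 0.032), with 9.90% called over all tested genes. Of 34 tested sarcomere genes, 21 rose and 1 fell, the LIM protein gene Fhl2 (-0.42 ± 0.12). The median of the 34 was 1.01 on the log2 scale, against 0.015 for all tested genes. Their share of all normalized counts went from 0.661% with ethanol to 1.38% with I-CBP112. Among the motor proteins, the cardiac alpha myosin heavy chain Myh6 went from 19485 with ethanol to 88094 with I-CBP112, or 2.18 ± 0.16 in the authors' deposited table (adjusted p = 7.59e-37). Its counterpart Myh7, the main ventricular form in the adult human heart, rose at a far lower level, from 66.9 to 155 (1.22 ± 0.40). The fast essential light chain Myl1 rose from 1015 to 7649, the smallest adjusted p of the comparison (2.83e-104). The atrial light chain Myl7 went from 13759 to 31778 (1.21 ± 0.11) and the thick-filament regulator Mybpc3 from 3378 to 9105 (1.43 ± 0.15). The ventricular light chains Myl2 and Myl3 were under the filter, with I-CBP112 means of 0.424 and 1.12.

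In the thin filament, 8 of 9 tested genes rose (median 1.34). Cardiac actin, Actc1, rose from 13068 to 34952, and skeletal actin, Acta1, from 87 to 170.4. All 3 troponin subunits rose in their cardiac form: Tnnt2 by 1.05 ± 0.12, Tnnc1 by 1.34 ± 0.15 and Tnni3 by 1.65 ± 0.15 in the authors' deposited table. The slow skeletal inhibitory subunit Tnni1, used by the embryonic heart, rose by 1.58 ± 0.18. At the Z-disc and M-band the picture was mixed, with 7 of 18 genes higher and 1 lower. Titin (Ttn, 8275 to 31570.3), alpha-actinin (Actn2, 532 to 2413), calsarcin (Myoz2, 132 to 419) and the M-band protein Myom2 (3428 to 7619) rose. Desmin (Des, 0.31 ± 0.25), Tcap (0.24 ± 0.47) and Csrp3 (0.78 ± 0.53) did not pass.

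The upstream sequences of sarcomere genes that rose are shown because many genes of that list rose. RefSeq promoters (GRCm38.p6) were found for 19 of the 21, in 24 windows of the 250 bases before the annotated start. The MEF2 consensus was found in 16.7% of these windows, against 0.383% of 13324 windows of tested genes and 0.508% of all 32851. The CArG box, the binding consensus of serum response factor, was found in 20.8%, against 1.21% and 1.47%. The MCAT element GGAATG was found in 37.5%, against 11.0% and 12.6%. The GATA letters AGATAA were in 4.17%, against 5.88%, and the T-box letters AGGTGT in 12.5%, against 9.34%. Only AGATAA was counted for GATA, so the TGATAA present in the Myl7 and Mybpc3 windows printed below was not. Both strands were searched, some genes have several windows that overlap, and a match is a description and no evidence of binding. By gene, MEF2 and CArG matches were each in 4 of the 19, and the same CArG site of Ldb3 lies in 2 windows. The set holds only sarcomere genes that rose, so these shares cannot tell a feature of sarcomere genes from one of genes that rose. Over all genes that rose, MEF2 matches were in 1.23% of 652 windows and CArG matches in 2.30%; over those that fell, 0.421% and 2.11% of 712.

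Promoters of 3 genes of each kind are printed 5′ to 3′ along the gene's strand, with the CArG box of Actc1, Acta1 and Myl7 and the MEF2 consensus of Ttn, Mybpc3 and Myoz2 in capitals. The windows are Actc1 (chr2:114052876-114053125, minus strand), Acta1 (chr8:123894776-123895025, minus strand), Myl7 (chr11:5898783-5899032, minus strand), Ttn (chr2:76982548-76982797, minus strand), Mybpc3 (chr2:91117894-91118143, plus strand) and Myoz2 (chr3:123034988-123035237, minus strand).
Actc1: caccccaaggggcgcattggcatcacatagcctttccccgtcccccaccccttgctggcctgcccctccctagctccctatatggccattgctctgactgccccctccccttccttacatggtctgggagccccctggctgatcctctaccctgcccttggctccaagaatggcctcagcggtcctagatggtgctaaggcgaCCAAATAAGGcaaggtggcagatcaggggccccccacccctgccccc
Acta1: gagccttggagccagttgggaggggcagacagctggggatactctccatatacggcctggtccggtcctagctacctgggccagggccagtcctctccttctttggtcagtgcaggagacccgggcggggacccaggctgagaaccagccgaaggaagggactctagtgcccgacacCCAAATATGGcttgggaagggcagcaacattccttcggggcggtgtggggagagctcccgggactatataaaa
Myl7: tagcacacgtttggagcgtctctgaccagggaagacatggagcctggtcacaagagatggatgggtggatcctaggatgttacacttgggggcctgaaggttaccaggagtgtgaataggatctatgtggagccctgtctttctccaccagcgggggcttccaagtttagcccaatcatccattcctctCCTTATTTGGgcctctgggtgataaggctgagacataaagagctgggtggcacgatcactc
Ttn: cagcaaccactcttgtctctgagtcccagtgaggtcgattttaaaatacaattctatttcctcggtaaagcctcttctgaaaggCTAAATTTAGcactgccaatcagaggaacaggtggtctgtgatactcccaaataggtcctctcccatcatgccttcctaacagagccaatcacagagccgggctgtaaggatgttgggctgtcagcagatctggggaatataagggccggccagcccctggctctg
Mybpc3: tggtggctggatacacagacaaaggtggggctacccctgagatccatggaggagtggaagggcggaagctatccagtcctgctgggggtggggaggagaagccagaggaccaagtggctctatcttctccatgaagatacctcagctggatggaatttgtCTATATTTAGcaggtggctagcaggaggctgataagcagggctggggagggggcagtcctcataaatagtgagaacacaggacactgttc
Myoz2: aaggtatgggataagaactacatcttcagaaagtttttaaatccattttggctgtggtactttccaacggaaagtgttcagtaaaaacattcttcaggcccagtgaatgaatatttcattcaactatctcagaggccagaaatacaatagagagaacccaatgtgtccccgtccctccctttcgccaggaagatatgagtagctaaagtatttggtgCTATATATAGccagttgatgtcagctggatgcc
The CArG box began 47 bases before the start in Actc1, 73 in Acta1 and 61 in Myl7. The MEF2 match began 166 bases before it in Ttn, 90 in Mybpc3 and 33 in Myoz2.

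Some genes that store and release calcium rose. Of 18 tested genes of the sarcoplasmic reticulum, 8 rose and 0 fell (median 0.50). The calcium release channel Ryr2 went from 5300.1 to 10594, the pump Atp2a2 (SERCA2) from 23148 to 39499 and the store protein Casq2 from 12398 to 18399. Both small inhibitors of the pump rose: sarcolipin (Sln) from 117 to 812, or 2.79 ± 0.30 in the authors' deposited table, and phospholamban (Pln) from 331 to 557. The exchanger Slc8a1, which carries calcium out of the cell, rose by 1.22 ± 0.11, and sarcalumenin (Srl) went from 2879 to 8116. Of 25 surface channel genes tested, 1 rose and 2 fell, a share near the 9.90% called over all tested genes. Of 11 tested calcium channel subunits 0 rose and 2 fell, Cacna2d3 (-1.42 ± 0.35) and Cacna1h (-1.08 ± 0.36), and the main pore subunit Cacna1c had -0.06 ± 0.17. Among 14 sodium, potassium and pacemaker channels only Hcn4, a pacemaker channel, passed (2449.7 to 3658). At cell junctions, desmoplakin (Dsp, 0.58 ± 0.13), plakophilin (Pkp2, 0.34 ± 0.12), Ctnna3 (0.67 ± 0.21) and the connexin Gja3 (1.26 ± 0.35) rose. The connexin Gja1, which fibroblasts also make, had -0.16 ± 0.11.

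The natriuretic peptides had large and uncertain changes. Nppa went from 819 to 13308 with a deposited log2 fold change of 4.02 ± 1.29 (adjusted p = 0.0239). Its standard error exceeded that of all 2055 tested genes within 2-fold of its mean count, whose median was 0.127. Nppb had 3.25 ± 1.16 and did not pass (adjusted p = 0.0519). The stress chaperone Hspb7 rose by 0.52 ± 0.14.

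Levels of the reprogramming factors count vector and endogenous RNA together. In the authors' deposited table Mef2c rose by 0.50 ± 0.13 (adjusted p = 0.00305), Gata4 by 0.33 ± 0.12 (adjusted p = 0.0443) and Hand2 by 0.32 ± 0.12 (adjusted p = 0.0498), while Tbx5 had 0.30 ± 0.35 and did not pass. The calls of Gata4 and Hand2 did not hold when fold changes were centred on the median gene, with adjusted p of 0.0603 and 0.0682. The median of the 4 factors over ethanol was 0.33 with I-CBP112 and 0.48 with DMSO. Among 21 other cardiac transcription factors tested, Prox1 (1.52 ± 0.42), Ankrd1 (0.87 ± 0.12), Tbx2 (0.84 ± 0.24) and Myocd (0.65 ± 0.17) rose. Tbx20, a T-box factor of the developing heart, fell from 1444 to 957 (-0.59 ± 0.17), and the muscle methyltransferase Smyd1 had -0.41 ± 0.30.

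**Figure D2:**
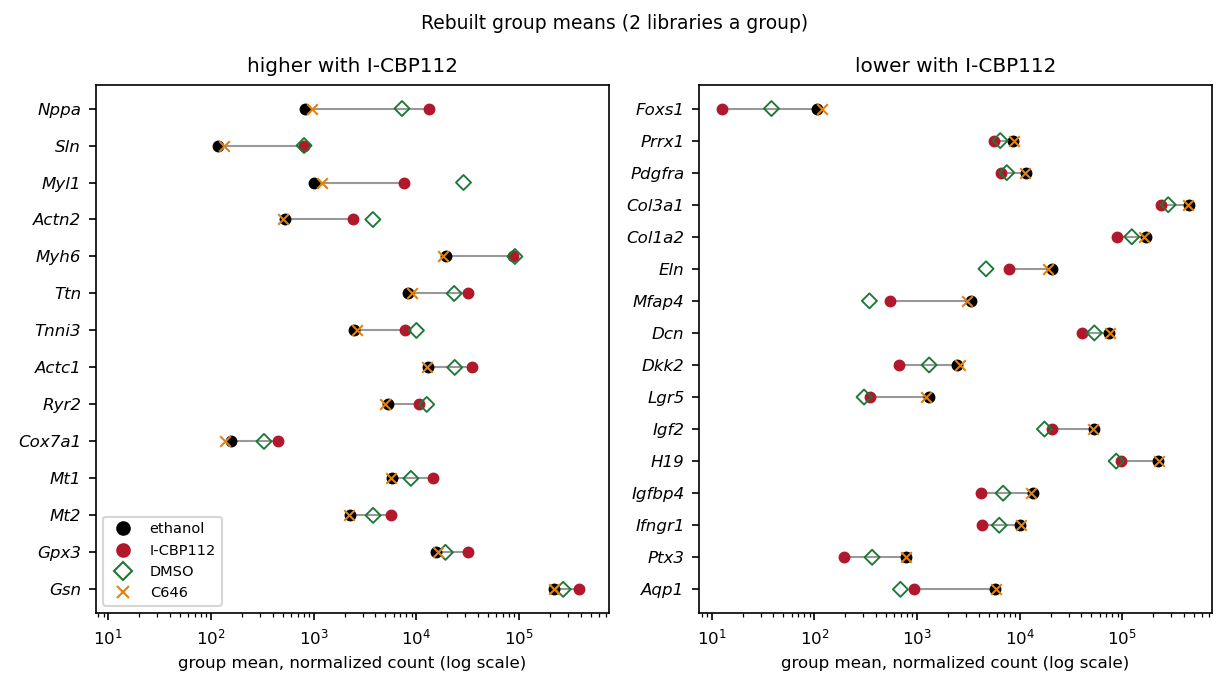
Rebuilt group means in normalized counts (horizontal log axis) of 30 named genes in ethanol, I-CBP112, DMSO and C646, with a grey line from ethanol to I-CBP112. Myl1 lay at 1015 with ethanol and 7649 with I-CBP112, and the C646 fold changes of the genes drawn are at most 0.25 in size (Myl1).

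Some genes of energy metabolism rose by small steps. Of 51 tested nuclear genes for subunits of the respiratory chain and ATP synthase, 14 rose and 0 fell, and every one of the 51 had a positive fold change (median 0.32). Their share of all counts was 0.489% with ethanol and 0.636% with I-CBP112. The largest changes were in the heart and muscle isoforms of cytochrome oxidase, Cox6a2 (26.8 to 97.5) and Cox7a1 (156 to 448). Common subunits rose less, such as Cox5a by 0.62 ± 0.13, Atp5g3 by 0.59 ± 0.12 and Atp5b by 0.45 ± 0.13 in the authors' deposited table. Of the 13 genes encoded in mitochondrial DNA, mt-Nd1 rose (0.45 ± 0.11) and 12 did not pass (median of the 13, -0.05). The mitochondrial protein gene Chchd10 rose from 611 to 1592.

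Of 32 fatty acid oxidation genes tested, 7 rose and 0 fell. They were Fabp3, a fatty acid carrier of heart muscle (1.02 ± 0.19), the coactivator Ppargc1a (0.87 ± 0.19), the muscle carnitine transferase Cpt1b (0.84 ± 0.28), Slc25a4 (0.68 ± 0.14), Hadhb (0.59 ± 0.12), Acaa2 (0.55 ± 0.17) and Acadl (0.42 ± 0.12). In the glycolysis and hypoxia list, 9 of 33 rose and 1 fell. The muscle phosphoglycerate mutase Pgam2 went from 1237 to 3094 and the heart form of lactate dehydrogenase, Ldhb, from 1587 to 3791. Its counterpart Ldha had 0.04 ± 0.20. The lactate carrier Slc16a1 fell (-0.55 ± 0.12). In cholesterol synthesis 8 of 25 genes rose and 0 fell, by 0.47 to 0.69 in the authors' deposited table, Pmvk, Tm7sf2 and Dhcr7 the most. With DMSO this list rose more: its median over ethanol was 0.53, against 0.27 with I-CBP112. In the test against DMSO described below, 6 of the 25 were lower with I-CBP112 and 0 higher.

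Of 32 lysosome genes tested, 14 rose and 0 fell (median 0.275), and 28 had a positive fold change. The list made up 0.776% of all counts with ethanol and 0.968% with I-CBP112. The sialidase Neu1 (1436 to 2485) and the hexosaminidase gene Hexa (0.65 ± 0.11) were among those that rose. So were 5 subunits of the proton pump: Atp6v1b2, Atp6v0a1, Atp6v0d1, Atp6v1a and Atp6v1c1, with fold changes of 0.42 to 0.56. Outside that list another pump subunit, Atp6v0e2, rose from 257 to 866. The transcription factors known to drive lysosome genes had -0.05 ± 0.19 (Tfeb), 0.05 ± 0.14 (Tfe3) and 0.05 ± 0.21 (Mitf).

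Metal-binding and antioxidant genes moved in both directions, with 6 of 39 tested higher and 9 lower. The metallothioneins Mt1 and Mt2, which bind zinc and copper and lie side by side on chromosome 8, went from 5796 to 14586 and from 2253 to 5698. The secreted glutathione peroxidase Gpx3 rose from 15727 to 31592. The cystine carrier Slc7a11 (-1.23 ± 0.27), the glutathione transferases Gsta3 (-1.23 ± 0.24), Gstt1 (-0.83 ± 0.17) and Gstm1 (-0.61 ± 0.12) and the extracellular superoxide dismutase Sod3 (-0.97 ± 0.22) fell in the authors' deposited table. Among the 24 members that did not pass, Nqo1 had 0.01 ± 0.17, Hmox1 -0.04 ± 0.14 and Gclc -0.06 ± 0.14. The detoxifying genes Fmo1 (3945 to 982), Ugt1a6a (3299 to 901) and Ugt1a7c (2026 to 520.2) fell. The Ugt1a genes share exons, so their counts may be split among them.

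Among the most abundant messages, the actin-severing protein Gsn went from 219873 to 384780.4 and was the highest protein-coding gene with I-CBP112. The secreted chaperone clusterin (Clu) rose from 4759 to 13463, a gene chosen after its values were seen. The kinesin Kif1a, a motor for vesicle transport, rose from 1383 to 4477 (1.70 ± 0.14). Otogl, an inner-ear matrix protein gene, went from 29.3 to 232. The starch-binding protein Stbd1, which tethers glycogen, rose by 1.27 ± 0.14.

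Fibroblast identity genes moved the other way. Of 21 tested surface and secreted markers of fibroblasts, 14 fell and 0 rose (median -0.83), and their share of all counts went from 3.04% to 1.91%. Pdgfra, a receptor that marks mesenchymal fibroblasts, fell from 11608 to 6514. Cd34 fell from 9844 to 5012, Pi16 from 1136 to 414, Ly6a from 11668 to 6561 and periostin (Postn) from 57414 to 32379. Other fibroblast genes did not pass: vimentin (Vim) had 0.04 ± 0.12, Thy1 -0.30 ± 0.35 and tenascin C (Tnc) 0.01 ± 0.21. Of 30 transcription factors of fibroblasts and mesenchyme, 7 fell and 0 rose. The forkhead factor Foxs1 fell from 106 to 12.7 and the homeobox factor Meox1 from 97.9 to 22.6, which are low levels. Runx1 (1265 to 500.1), Creb3l1, which drives collagen genes (1432 to 657), and Prrx1, a marker of limb and body-wall mesenchyme (8657 to 5653), fell at higher levels. Twist1 (-0.09 ± 0.14), Twist2 (0.13 ± 0.15), Snai2 (-0.37 ± 0.22) and Zeb1 (-0.19 ± 0.14) did not pass.

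Fibrillar collagens fell from 2.31% of all counts to 1.33%. Of 10 tested, 6 fell and 0 rose. Col3a1 went from 442902 to 237283 and Col1a2 from 170260.0 to 89199. Col1a1 had -1.11 ± 0.39, but with a larger error did not pass (adjusted p = 0.0506). All 3 type V chains fell, with values of -0.64 ± 0.14 (Col5a1), -0.54 ± 0.13 (Col5a3) and -0.30 ± 0.10 (Col5a2) in the authors' deposited table. Of 8 basement membrane collagens 1 rose and 1 fell: the main chains Col4a1 (-0.06 ± 0.10) and Col4a2 (0.06 ± 0.12) did not pass, Col4a6 rose (0.55 ± 0.14) and Col15a1 fell (-1.53 ± 0.33). Among 22 other collagens 10 fell and 0 rose, led among the well-measured ones by Col28a1 (1845 to 521), Col8a1 (25183 to 12549) and Col8a2 (3743 to 1850.4).

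Enzymes that finish collagen moved with it in part, with 8 of 21 lower and 1 higher. The cross-linking lysyl oxidases Lox (-0.69 ± 0.11), Loxl1 (-0.50 ± 0.13) and Loxl3 (-0.90 ± 0.17), the collagen chaperone Serpinh1 (-0.52 ± 0.14) and the proteinase enhancers Pcolce (-0.49 ± 0.12) and Pcolce2 (-1.10 ± 0.15) fell. The lysyl hydroxylases Plod1, Plod2 and Plod3 did not pass, at -0.02, 0.25 and -0.08. The prolyl hydroxylase P3h2, which acts on basement membrane collagen, rose (0.61 ± 0.14).

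Genes of elastic fibres, which let tissue recoil, were lower as a group. All 19 tested genes had a negative fold change and 12 fell (median -0.63). Elastin (Eln) went from 20481 to 7859. The microfibril proteins Mfap4 (3360.1 to 541; adjusted p = 2.53e-55) and Mfap5 (1418 to 366) changed most. The scaffold fibrillins Fbn1 (-0.42 ± 0.13) and Fbn2 (-0.67 ± 0.18), the assembly protein Fbln5 (-0.63 ± 0.13) and the TGF-beta binding proteins Ltbp1 (-1.04 ± 0.34) and Ltbp4 (-1.04 ± 0.25) fell in the authors' deposited table. Mfap2 (-0.13 ± 0.18) and Efemp2 (-0.16 ± 0.15) did not pass.

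Small leucine-rich proteoglycans, which coat collagen fibrils, fell for 7 of 12 tested and rose for 0. Decorin (Dcn) went from 73674 to 40061, lumican (Lum) from 20509 to 10002, biglycan (Bgn) from 27498 to 15381 and Prelp from 8063 to 4050.3. Epyc, a cartilage member, went from 252 to 36.9. Dcn, Lum and Epyc are neighbours on chromosome 10. Among 19 matricellular proteins 10 fell and 2 rose. Wisp2 (-1.11 ± 0.11), Sparcl1 (-1.09 ± 0.13), Comp (-1.34 ± 0.19) and Sparc (-0.57 ± 0.12) fell, while osteopontin (Spp1, 0.82 ± 0.16) and Thbs2 (0.37 ± 0.12) rose. Of 29 tested integrin and laminin genes 8 fell and 2 rose. The integrin chains Itga4 (-0.97 ± 0.21), which binds fibronectin, and the collagen-binding Itga11 (-1.37 ± 0.20), Itga10 (-0.82 ± 0.25) and Itga1 (-0.79 ± 0.14) were among those that fell. The laminin-binding chains Itga6 (1114 to 2527) and Itga7 (2511 to 3631) rose, while Itga3, which also binds laminin, had -0.27 ± 0.21 and did not pass.

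Of 46 tested proteases and protease inhibitors 22 fell and 0 rose (median -0.49). Of 32 metalloproteinases and relatives 14 fell and 0 rose, and of 14 inhibitors 8 fell and 0 rose. Adamts4 (398 to 126) and Adamts5 (12747 to 7229.5), which cut large proteoglycans, and Adam12 (1887 to 880.1) were among those that fell. Mmp2 had -0.12 ± 0.11 and Mmp14 0.13 ± 0.11 and did not pass in the authors' deposited table. The inhibitors Timp1 (-0.72 ± 0.12), Serpina3n (-1.08 ± 0.11), Serpinf1 (-0.91 ± 0.14) and Serping1 (-0.91 ± 0.13) fell, and Timp2 (0.09 ± 0.11) and Timp3 (-0.29 ± 0.16) did not pass.

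**Figure D3:**
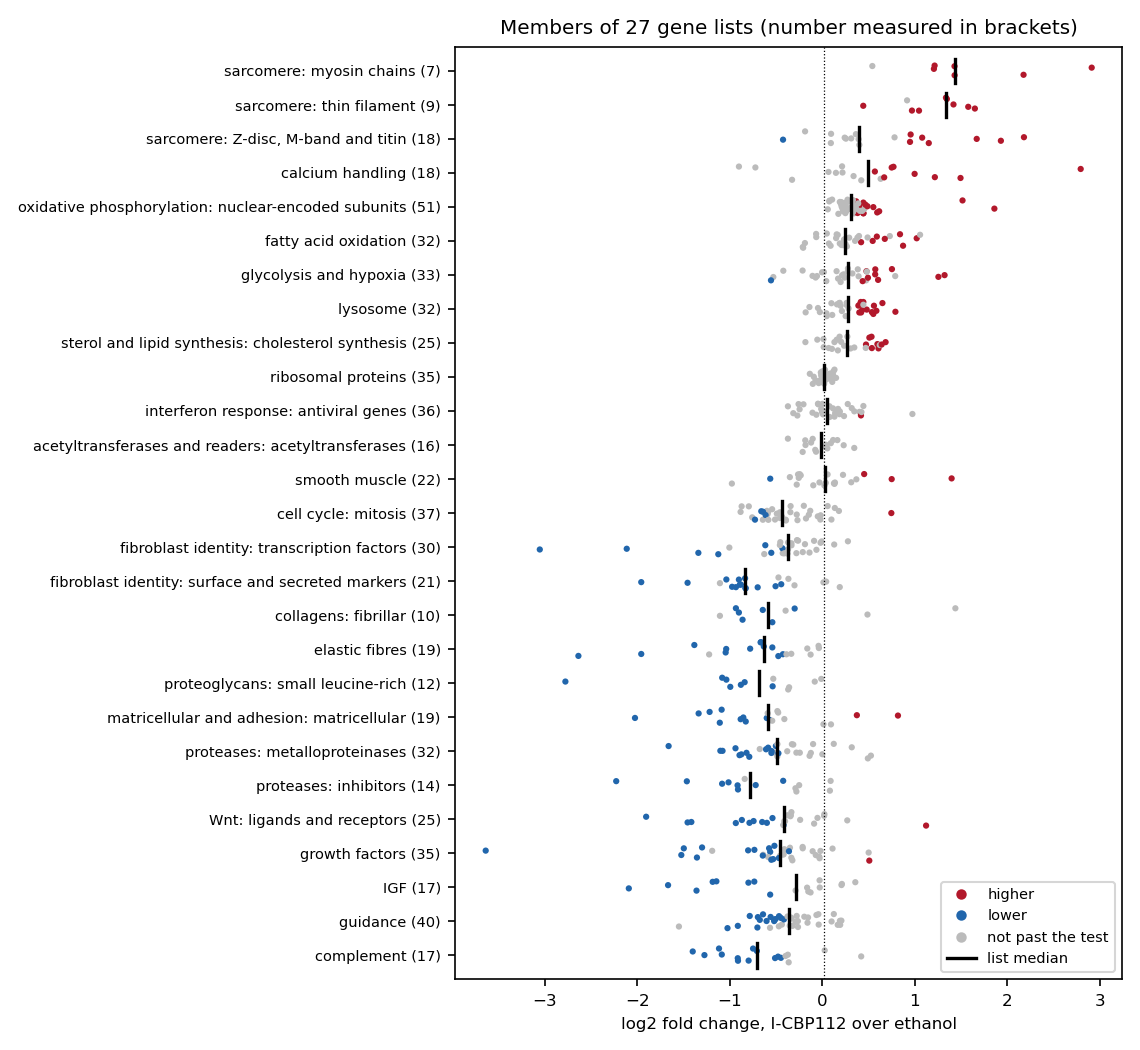
Log2 fold changes of I-CBP112 over ethanol (horizontal axis, authors' values) for the tested members of 27 gene lists, 1 point a gene, with a black bar at each list's median and a dotted line at the median of all tested genes, 0.015. Of the medians drawn, that of myosin chains is the highest at 1.43 and that of fibroblast markers the lowest at -0.83, with ribosomal proteins at 0.02.

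Wnt signals and their receptors were often lower. Of 25 tested ligands and receptors 11 fell and 1 rose (median -0.41). Among ligands, Wnt5a fell from 1925 to 1326, and Wnt2 and Wnt4 fell at low levels (-1.46 ± 0.37 and -0.65 ± 0.22). The Frizzled receptors Fzd1 (4889.7 to 2560.0), Fzd4 (6393 to 3707), Fzd8, Fzd2 and Fzd7 fell, and Fzd3 rose from 139.5 to 304. The co-receptors Lrp5 (-0.24 ± 0.16) and Lrp6 (-0.05 ± 0.13) did not pass. The R-spondin receptor Lgr5 went from 1314 to 351 and the ligand Rspo2 from 1303 to 714. Secreted antagonists differed: Dkk2 (2478 to 667), Sfrp1 (7832 to 3482) and Sfrp2 (7914 to 3116) fell, and Dkk3 rose from 7752 to 14611. The feedback target Nkd1 fell (-0.68 ± 0.15) and Axin2, another target, had -0.35 ± 0.32 in the authors' deposited table.

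In the TGF-beta and BMP family 12 of 42 tested genes fell and 1 rose. Among ligands, Bmp3 (5680.2 to 2247), Bmp4 (1989 to 1170.1), Gdf6 (-1.54 ± 0.24), Gdf10 (-1.30 ± 0.23) and the activin subunit Inhba (-1.16 ± 0.19) fell. The 3 TGF-beta ligands did not pass, at 0.09 (Tgfb1), -0.14 (Tgfb2) and 0.21 (Tgfb3), nor did the receptors Tgfbr1 (0.15 ± 0.13) and Tgfbr2 (-0.29 ± 0.11). The antagonists follistatin (Fst, 4802 to 2345) and gremlin (Grem1, 1110.1 to 483) fell. Of the immediate BMP targets, Id4 (-0.76 ± 0.17) and Id2 (-0.58 ± 0.16) fell, and Id1 (-0.07 ± 0.13) and Id3 (-0.16 ± 0.16) did not pass. Gdf11 rose (0.92 ± 0.19).

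Insulin-like growth factor genes fell at high levels. Igf2, a fetal growth factor, went from 53364 to 20809, and the imprinted noncoding RNA H19 beside it from 221183 to 97359. Igf1 went from 1474 to 887, and the binding protein Igfbp4 from 13483 to 4249 (-1.67 ± 0.13). Pappa, a protease that cuts Igfbp4, fell (-1.14 ± 0.16), as did Pappa2 (-2.09 ± 0.33). The receptors Igf1r (-0.16 ± 0.18), Igf2r (0.36 ± 0.14) and Insr (-0.03 ± 0.16) did not pass. Over the list, 8 of 17 fell and 0 rose. Other imprinted genes fell too, 7 of 19 with Igf2 and H19 counted: Plagl1 (-0.82 ± 0.16), Mest (-0.74 ± 0.13), Cdkn1c (-0.67 ± 0.15), Slc38a4 (-0.75 ± 0.17) and Peg3 (-0.41 ± 0.12). Snrpn rose (0.62 ± 0.21), and Meg3 (-0.23 ± 0.15) and Dlk1 (-0.32 ± 0.15) did not pass.

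Of 35 other growth factors and receptors 15 fell and 1 rose. The fibroblast growth factors Fgf7 (501 to 178), Fgf16 (324 to 127) and Fgf2 (2802 to 1914) fell. So did Ereg (-1.30 ± 0.24), Nrg1 (-0.73 ± 0.16) and Vegfa (-0.64 ± 0.16), while Hbegf rose (0.51 ± 0.14). The receptors Fgfr1 (-0.07 ± 0.12), Egfr (-0.21 ± 0.11) and Met (-0.10 ± 0.22) did not pass in the authors' deposited table. Axon guidance genes, many of which mesenchyme also uses, fell for 15 of 40 tested and rose for 0, with Plxna2 (-1.02 ± 0.18), Sema6d (-0.91 ± 0.16) and Robo2 (-0.78 ± 0.15) the lowest of those past the test. In the Notch pathway 5 of 17 fell and 0 rose, among them the ligand Jag1 (4361 to 2806) and the target Hes1 (1895 to 1223). Notch1 (-0.32 ± 0.26) and Notch2 (-0.09 ± 0.17) did not pass.

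Most tested complement genes fell, and chemokines moved both ways. Of 17 complement components, inhibitors and relatives 12 fell and 0 rose (median -0.71). C3 went from 906 to 427, C4b from 880.4 to 334, Cfb from 597 to 317 and the inhibitor Serping1 from 5775 to 3073. The chemokines Cxcl1 (-1.15 ± 0.38), Cxcl5 (-2.17 ± 0.37) and Cxcl15 (-2.32 ± 0.38), neighbours on chromosome 5, fell. Cxcl12, the stromal chemokine, fell from 14742 to 8897. The monocyte chemokines Ccl2 (149.5 to 305) and Ccl7 (276 to 529) rose. The pentraxin Ptx3 fell from 776 to 195. The macrophage genes Csf1r (-0.64 ± 0.22) and Adgre1 (-0.74 ± 0.24) were lower as well, and their part in these values was not tested.

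The interferon gamma receptor chain Ifngr1 fell from 10168 to 4334 (-1.23 ± 0.12), while its partner Ifngr2 had 0.26 ± 0.13. Of 36 antiviral interferon targets Ifi27 passed (0.42 ± 0.12), and the median of the 36 was 0.05. Of 13 interferon-induced GTPases 0 passed, and of 20 genes of the MHC class I pathway 0 passed, Tap1 at -0.11 ± 0.15 and B2m at 0.23 ± 0.11 in the authors' deposited table. The share over all tested genes was 9.90%.

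Of 103 tested cell cycle genes 2 rose and 9 fell, again near the 9.90% of all genes. Of 37 mitosis genes 4 fell and 1 rose: Tpx2 (-0.73 ± 0.20), Kif20a (-0.66 ± 0.21), Mki67 (704 to 452) and Top2a (805 to 527) fell, and the centromere histone gene Cenpa rose (0.75 ± 0.15). Of the 37, 32 had a negative fold change, and their median was -0.43. Of 38 replication genes Rrm2 (-0.80 ± 0.17) and Mcm6 (-0.42 ± 0.15) fell, and the call of Mcm6 did not hold when levels were rescaled to the group totals (adjusted p = 0.0620). Cdkn1a, the p21 gene, had 0.07 ± 0.16. In the list for the integrated stress response and amino acid supply, 8 of 30 fell and 0 rose, led by Trib3 (693 to 326). The regulator Atf4 was among them (-0.31 ± 0.11, adjusted p = 0.049). Of 35 ribosomal protein genes 0 passed, and their fold changes ran from -0.13 to 0.15.

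The genes of the inhibited proteins did not pass the test. Crebbp, the CBP gene, had 0.06 ± 0.21 (1918 to 1994) and Ep300, the p300 gene, had -0.10 ± 0.15 (1720.0 to 1602). Of 16 acetyltransferases 0 passed, and of 32 other bromodomain genes Phip passed (0.43 ± 0.13). Over all tested genes 9.90% passed, so few calls would be looked for in lists this short. Among 18 partners of CBP and p300, Cited1, a coregulator that binds them, rose from 185 to 549.5. Of 18 deacetylases, Hdac9 (338 to 642) and Hdac11 (399 to 749) rose and Hdac7 fell (1677 to 1030.1). Of 37 other chromatin genes, the architectural protein Hmga1 (0.89 ± 0.17) and the polycomb gene Suz12 (0.51 ± 0.16) rose.

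The DMSO cultures received no inhibitor, and both groups were set against the same ethanol libraries. The difference between I-CBP112 and DMSO was tested with its own standard error, derived from those in the tables. It passed an adjusted p below 0.05 for 1034 of 14830 genes (6.97%), of which 639 were higher with I-CBP112 (4.31%) and 395 lower (2.66%). With the upper bound of that standard error the count was 237. For several of the lists described above, the share of counts or the median with DMSO lay close to that with I-CBP112. Such summaries can hide genes that differ in opposite directions. Of 21 fibroblast surface and secreted markers, 6 were higher with I-CBP112 than with DMSO and 4 lower. Of 19 elastic fibre genes 4 were higher and 3 lower, and of 17 complement genes 5 and 2. Of 51 nuclear respiratory chain genes 0 differed. The sarcomere list made up 0.661% of all counts with ethanol, 1.38% with I-CBP112 and 1.44% with DMSO, and the fibroblast surface and secreted markers 3.04%, 1.91% and 1.90%. The median log2 fold change over ethanol of the elastic fibre list was -0.63 with I-CBP112 and -0.70 with DMSO, and that of the complement list -0.71 and -0.76. In the same order it was 0.32 and 0.28 for nuclear respiratory chain genes, 0.25 and 0.24 for fatty acid oxidation and -0.46 and -0.47 for Notch. The insulin-like growth factor list made up 1.17% of all counts with ethanol, 0.752% with I-CBP112 and 0.704% with DMSO. For imprinted genes these shares were 1.23%, 0.778% and 0.676%. The median of the insulin-like growth factor list was -0.287 with I-CBP112 and -0.125 with DMSO. Of its 17 genes 4 were lower with I-CBP112 than with DMSO and 0 higher. Other medians lay further apart, at -0.59 with I-CBP112 and -0.23 with DMSO for the fibrillar collagens. They were -0.41 and -0.09 for Wnt ligands and receptors, and 0.27 and 0.53 for cholesterol synthesis. Within the sarcomere list, 5 of 34 genes were higher with I-CBP112 than with DMSO and 6 lower. Actc1 (difference 0.56 ± 0.13), Tnni1 (1.22 ± 0.18), Myom2 (0.87 ± 0.12) and Myoz2 (1.64 ± 0.29) were higher with I-CBP112. Myl1 (-1.91 ± 0.13), Myl7 (-0.88 ± 0.11) and Actn2 (-0.65 ± 0.14) were higher with DMSO. For Myh6 the difference was -0.05 ± 0.16, with a 95% interval from -0.37 to 0.27, and for Nppa 0.88 ± 1.29, from -1.66 to 3.41.

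**Figure D4:**
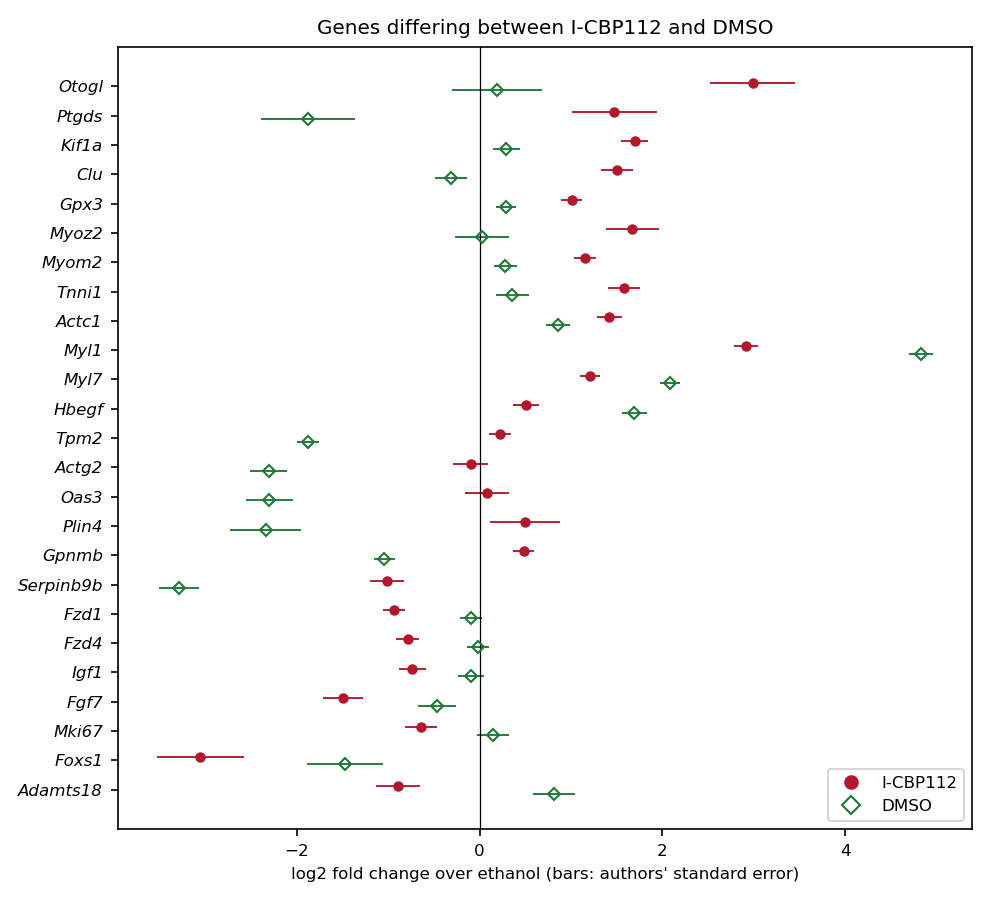
Log2 fold changes over ethanol (horizontal axis) of 25 genes whose difference between I-CBP112 and DMSO passed the test, with bars for the authors' standard error. Actg2 lay at -0.10 with I-CBP112 and -2.30 with DMSO, and Fzd1 at -0.93 with I-CBP112 and -0.09 with DMSO.

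Interferon and smooth muscle genes separated I-CBP112 from DMSO. Of 36 antiviral genes 26 were higher with I-CBP112 than with DMSO and 0 lower. The synthetase Oas3 had means of 484 with ethanol, 512 with I-CBP112 and 98.4 with DMSO. Of 22 smooth muscle genes 12 were higher with I-CBP112 and 1, Npnt, lower: Actg2 had means of 899.9, 842 and 183 in the same order, and Tpm2 14955, 17479 and 4089.6. For these 3 genes the I-CBP112 mean lay near that of ethanol and the DMSO mean below both. The lipid droplet gene Plin4 (2.84 ± 0.38) and the prostaglandin D synthase Ptgds (3.35 ± 0.51) had the largest differences toward I-CBP112 among genes with a mean count of 50 or more and a gene name that is not a clone or Rik name. Ptgds rose with I-CBP112 (71.8 to 199) and was 19.5 with DMSO.

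Some genes changed with I-CBP112 and differed from DMSO as well. Kif1a was 1696 with DMSO against 4477 with I-CBP112, Clu 3832 against 13463, and Gpx3 19230.2 against 31592. Metallothioneins were higher with I-CBP112 by 0.72 ± 0.20 (Mt1) and 0.59 ± 0.20 (Mt2). Of the lysosome list, 8 of 32 were higher with I-CBP112 and 1, Lipa, lower, with Gpnmb at 4576 with DMSO and 13129 with I-CBP112. On the low side stood Fzd1 (-0.84 ± 0.12), Fzd4 (-0.77 ± 0.12), Igf1 (-0.64 ± 0.15), Fgf7 (-1.03 ± 0.22), Col8a2 (-1.06 ± 0.16), Sparcl1 (-0.86 ± 0.13) and Foxs1 (-1.58 ± 0.49). The growth factor Hbegf was also lower than with DMSO (-1.18 ± 0.14), as were 8 of 37 mitosis genes, Mki67 (-0.79 ± 0.18) among them. Aqp1, a water channel, was 942 with I-CBP112 and 689.8 with DMSO (difference 0.45 ± 0.17, 95% interval from 0.13 to 0.77, adjusted p = 0.0779), and Insc, which orients the mitotic spindle, 18.7 and 18.2 (difference 0.04 ± 0.43). Mfap4 was lower still with DMSO, at 344 against 541.

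C646, the catalytic inhibitor, was given at the same 5 µM for the same 7 days and gave 1 call among the 14830 tested genes, the calcium channel subunit Cacnb4 (878 with ethanol, 287 with C646). The p-values of the C646 table leaned high, with 77.6% of tested genes above 0.5 against 40.3% for I-CBP112. Its Wald statistics had a standard deviation of 0.608, against 1.86 for I-CBP112. Without any change and with fitting errors it would be near 1. The errors were thus wide for this comparison, and 1 call does not show that C646 had no effect. The labels do not name the solvent of C646 either. Myh6 was 18214 with C646 against 19485 with ethanol and 88094 with I-CBP112. Col3a1 was 433769, 442902 and 237283 in that order. With the C646 libraries in place of ethanol as the reference, an alternative added after seeing the data, 1453 genes passed.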

How the data were processed

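RNA-seq libraries of reprogramming fibroblasts were compared, 2 with I-CBP112 and 2 with ethanol. Per the submitters' processing notes, the authors used kallisto 0.43.1, GRCm38.p5 and DESeq2 (no version stated). The deposited tables hold comparisons, with no columns of single libraries, so depth per library is unknown. Their signal column, baseMean, is the authors' mean normalized count. The log2 fold change and its standard error are on the authors' log2 scale. The authors' Wald statistic, a score, matched the fold change over its error within 2.47e-07. Each p-value and adjusted p-value is the authors' own.

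The mean of each group was derived by combining baseMean with all 3 fold changes. A dispersion per gene was rebuilt from the standard errors, and the formula gave 98.9% of the I-CBP112, 98.6% of the DMSO and 99.0% of the C646 errors within 1%. For I-CBP112 against DMSO, the difference of fold changes was divided by a rebuilt standard error, with a normal p adjusted by Benjamini-Hochberg over 14830 genes. That test was run on simulated data first. The simulated errors were made with the same formula and known dispersions, so that run checked the arithmetic and not the fit to real errors. Gene types and positions came from GENCODE M21 (14807 of 14830 tested genes matched).

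Genes were named by a rule. It took the 20 highest and 20 lowest fold changes past the test at a mean count of 50 or more. The 15 largest and 15 smallest Wald statistics were taken under the same conditions. Also taken were up to 3 extremes each way of every list past the test, the markers, GHMT, Crebbp and Ep300. The 10 largest differences from DMSO each way and the 10 highest I-CBP112 means completed the rule. Not all of these genes are mentioned in the text. Other list members are named as examples, chosen after their values were seen, as were the promoter motifs. The comparison and the gene lists were chosen with earlier results of these data known. Alternatives covered thresholds, adjustment, filter, scaling, the t distribution, a minimum effect, a pseudocount of 1 and the reference group. Analyses used Python 3.11.15, pandas 2.3.3, numpy 2.4.6 and scipy 1.17.1. Results for some genes are not reported here.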

Additional observations from a re-analysis of the deposited data

How the results depend on the processing

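The count of 1468 changed genes fell to 976 at an adjusted p below 0.01, to 423 at 2-fold or more, to 186 against a minimum effect of 0.5 on the log2 scale, and to 0 with a t distribution on 4 degrees of freedom. The same settings gave 438, 161, 67 and 0 of the 689 higher genes. For the 779 lower genes, 2-fold gave 262, the minimum effect 119 and the t distribution 0. With the t distribution the lowest adjusted p was 0.242 and 1506 genes had an unadjusted p below 0.05, against 2861 with the normal distribution. Adjustment over all genes with a p-value (1166), a mean count of 50 or more (1440), centring on the median gene (1454) and rescaling to totals (1474) stayed within 1.5 times the count, as did C646 in place of ethanol (1453), an alternative chosen after seeing the data. Centring gave 633 higher and 821 lower genes, and rescaling 754 and 720. The 1034 genes that differed from DMSO became 598 at an adjusted p below 0.01 and 237 with the upper bound of the standard error.

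Of 259 named genes, 3 lost the test on centring: Gata4 (adjusted p = 0.0603), Hand2 (0.0682) and Cd44 (0.0512). On rescaling 6 did: Axl (0.0729), Heyl (0.0551), Cx3cr1 (0.0507), Apoe (0.0661), Mcm6 (0.0620) and Ccnd1 (0.0546). With the t distribution 241 did. Since 0 tested genes passed with it, the remaining 18 had not passed in the authors' deposited table either. Of 144 list counts, 25 moved by over 1.5 times at an adjusted p below 0.01, 4 on centring and 8 on rescaling. No paired analysis was possible because the tables hold no values of single libraries, and for the same reason no replicate was left out.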

Other observations

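Tested genes that lie next to each other formed 15 runs of at least 3 adjacent genes called in the same direction, 5 higher and 10 lower, given here as a description with no test. Among the lower runs were Hoxa10, Hoxa11 and the antisense gene Hoxa11os on chromosome 6, the serpins Serpina3i, Serpina3m and Serpina3n on chromosome 12, and Ugt1a7c, Ugt1a6b and Ugt1a6a on chromosome 1. Among the higher runs were Tmem176b, Tmem176a and Gpnmb on chromosome 6, and Rcan2, Enpp5, Enpp4 and Clic5 on chromosome 17. Overlapping, antisense and closely related genes in these runs may share reads.

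Genes of cartilage, bone and tendon were lower as a set: of 18 tested, 8 fell and 1 rose. The median of the 18 was -0.75 with I-CBP112 and -0.76 with DMSO, both against ethanol. Tenomodulin (Tnmd), a tendon membrane protein, went from 374 with ethanol to 60.8 with I-CBP112, and Phex, a peptidase of bone cells, from 304 to 89.5. The cartilage regulator Sox9 fell from 388 to 208. In the Hox clusters 2 of 29 fell and 1 rose, Hoxb9 (366 to 698), a share near the 9.90% called over all tested genes. Below the authors' filter, 191 of 19420 genes (0.984%) had an unadjusted p below 0.05, 78 higher and 113 lower.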
